A study of Mus musculus with 9 samples.

Results

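The transcripts described here encode 8 secreted ligands and matrix proteins that signal between macrophages and the vessel wall, epithelium and stroma: the endothelin precursor Edn1, the growth factors Hbegf, Vegfa and Pdgfb, the TGF-beta superfamily ligands Tgfb1, Inhba and Gdf15, and the matrix glycoprotein Thbs1. They were found by gene name in the deposited count table and are 8 of its 51826 genes. The names were chosen by function and from earlier results on these same 9 libraries, so the members' levels and fold changes in every comparison are a description, with no p-value. Where the fit to all genes called a member, or lost the call in an alternative, that too is a description of values that the choice had used and supports no statement about the set.

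As background, endothelin-1 is cut from a larger precursor by furin and then by endothelin-converting enzyme and acts on G protein-coupled receptors of smooth muscle and other cells. Heparin-binding EGF-like growth factor is made as a membrane protein and is released by the sheddase ADAM17 to act on the EGF receptor and ERBB4, while VEGF-A and PDGF-B act on receptor tyrosine kinases of endothelial cells and pericytes. TGF-beta 1 is secreted in a latent complex and, once activated, signals through type II and type I receptors to SMAD proteins, and activin A, the dimer of the Inhba product, uses a related set of receptors.

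RAW 264.7 is an established mouse macrophage line, so all groups share 1 source of cells. The study compared 3 groups: cells given vehicle (the solvent, with no time stated), cells given lipopolysaccharide (LPS), a bacterial outer membrane component sensed by TLR4, at 300 ng/mL for 6 h, and cells given the isoflavone calycosin at 100 µg/mL for 24 h and then the same LPS exposure. The series asked how calycosin acts on inflammation in macrophages. There was no group with calycosin alone. Each group had 3 libraries of polyadenylated RNA that the labels call biological replicates, and since nothing more is said of their origin, p-values measure the spread between these samples, which may be technical.

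Total counts ran from 27784737 to 38524105 per library, and 14458 genes had enough counts to be tested, among them 6 of the 8 members. Levels are in CPM, the depth-scaled count with library sizes corrected by the trimmed mean of M values, as mean ± SD over 3 libraries. A floor of 3 counts was taken as an approximate upper limit for a count of 0, not an absolute one. It equals 0.0602 to 0.137 CPM. This floor covers counting error only, because the reads carry no molecular identifiers. Macrophage markers (9 genes, 8 tested) summed to 4820 to 5305 CPM in vehicle and 5187 to 5429 CPM in LPS libraries. With calycosin plus LPS they summed to 3682 to 4322 CPM, so every library held macrophage transcripts. Single markers did not move together. Lyz2 was at 2560, 1193 and 798 CPM in vehicle, LPS and calycosin plus LPS cells. Cd14 was at 513, 1248 and 505 CPM in that order, and Mertk had 2, 2 and 6 counts. Among markers of other cells, Tie1, Dcn, Lum, Epcam, Krt8 and Krt18 were at 0 counts throughout, fibroblast markers (4 genes) summed to at most 1.28 CPM, epithelial (4 genes) to at most 0.0402 CPM, lymphoid (2 genes) to at most 0.183 CPM and platelet markers (3 genes) to at most 0.623 CPM. The 5 endothelial markers summed to 41.3 to 58.4 CPM in vehicle, 39.6 to 44.7 CPM in LPS and 26.7 to 33.1 CPM in calycosin plus LPS libraries, nearly all of it Vwf (50.6, 36.9 and 27.9 CPM). Cdh5 had another pattern, with 0.354, 4.76 and 0.671 CPM in the same order: it rose 13.7-fold with LPS and fell 7.08-fold with calycosin (adjusted p = 5.44e-05 and 0.00108, edgeR). Pecam1 was at 0.247, 0.641 and 0.268 CPM and did not pass (adjusted p = 0.0687 and 0.131). The 3 smooth muscle markers summed to 0.473 to 0.863, 2.05 to 2.73 and 0.493 to 1.00 CPM in the same order. Their sum, like Cdh5, was highest with LPS, as several members were. Single genes differed: Acta2 was at 0.36, 1.54 and 0.0313 CPM, Tagln at 0.270, 0.777 and 0.656 CPM, and Myh11 had 6, 2 and 2 counts. The part of Cdh5 and these markers in the results was not tested. Vehicle replicate 3 stood apart with 21.9% of its counts in mitochondrially encoded genes, against 3.68% and 3.79% in the other vehicle libraries, and calycosin plus LPS replicate 2 with 7.45%, against 17.3% and 19.4% in its group. LPS libraries held 13.0% to 14.7%. Member values are therefore also given without these libraries.

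Edn1 was the member with the widest range between groups. The gene (ENSMUSG00000021367) is protein coding and lies on the plus strand of chr13:42301476-42307990 (GRCm38). No Edn1 read was counted in any of the 3 vehicle libraries. LPS libraries held 507, 597 and 511 counts, or 23.1, 24.5 and 21.2 CPM. Calycosin plus LPS libraries held 18, 20 and 24 counts, or 0.564, 0.469 and 0.777 CPM. The 3 groups did not overlap: vehicle libraries were all at 0, LPS libraries were all high, and libraries with calycosin lay between them and above the floor. LPS cells (22.9 ± 1.63 CPM, n = 3) were thus at least 323-fold higher than vehicle cells when 3 counts are put in each vehicle library. Calycosin plus LPS cells (0.603 ± 0.158 CPM, n = 3) were lower than LPS cells by 5.26 on the log2 scale (a log2 fold change of -5.26, SE 0.23, 95% interval -5.79 to -4.73), which is 38.2-fold, and at least 8.49-fold higher than vehicle cells. In these bulk cultures, fewer cells that make a transcript and less transcript per cell cannot be told apart. Among all 14458 genes tested, Edn1 ranked 15th from the lowest fold change between the LPS groups. Without vehicle replicate 3 and calycosin plus LPS replicate 2, the log2 fold change between the LPS groups was -5.07.

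The sequence upstream of Edn1 is shown because its transcript had no read in vehicle cells, a clear signal with LPS and a much lower one with calycosin plus LPS. Of the 8 members, 5 (Edn1, Vegfa, Inhba, Tgfb1 and Gdf15) have a window in the RefSeq promoter table (GRCm38.p6), and Hbegf, Pdgfb and Thbs1 are named only. The 250 bases before the Edn1 start, on the plus strand of chr13:42301226-42301475, read as follows, with capitals reserved for a match to a searched motif, of which it has none.
Edn1: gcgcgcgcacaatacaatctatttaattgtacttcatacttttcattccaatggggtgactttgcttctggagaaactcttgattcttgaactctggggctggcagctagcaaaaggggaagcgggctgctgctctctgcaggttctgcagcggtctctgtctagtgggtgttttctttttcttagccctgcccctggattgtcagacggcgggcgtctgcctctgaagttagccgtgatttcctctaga
Motifs searched on both strands, in windows of 250 bases before and 50 after each start, were the TATA box TATAAA, AP-1 TGANTCA, CRE TGACGTCA, the NF-kappaB consensus, the hypoxia response core ACGTG and the EGR sequences GCGTGGGCG and GCGGGGGCG. Of 32851 such windows, 13.6%, 7.81%, 1.79%, 8.46%, 19.6%, 0.612% and 2.91% held them, in that order. The 1 match in the Edn1 window was the hypoxia response core, on the minus strand at bases 22 to 26 after the start, outside the stretch printed. A match is a description of letters, and the absence of one says nothing about a factor.

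Of the genes listed around endothelin, most were at or near 0 and Ece2 was not, and since the way reads were assigned to genes is not given in the sources used here, a 0 is reported as listed. The paralogs Edn2 and Edn3, the converting enzyme Ece1, the degrading peptidase Mme and the receptor Ednrb had 0 counts throughout (an upper limit of 0.137 CPM in the shallowest library, for counting error only), and Ednra, the receptor of smooth muscle, had 2 counts, both with LPS. Of the 7 genes listed, the converting enzyme Ece2 alone was tested, with 13.0 CPM in vehicle, 18.6 in LPS and 11.3 in calycosin plus LPS cells. It passed in no comparison (adjusted p = 0.233, 0.161 and 0.670 in edgeR's quasi-likelihood test for LPS against vehicle, calycosin plus LPS against LPS, and calycosin plus LPS against vehicle).

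**Figure D1:**
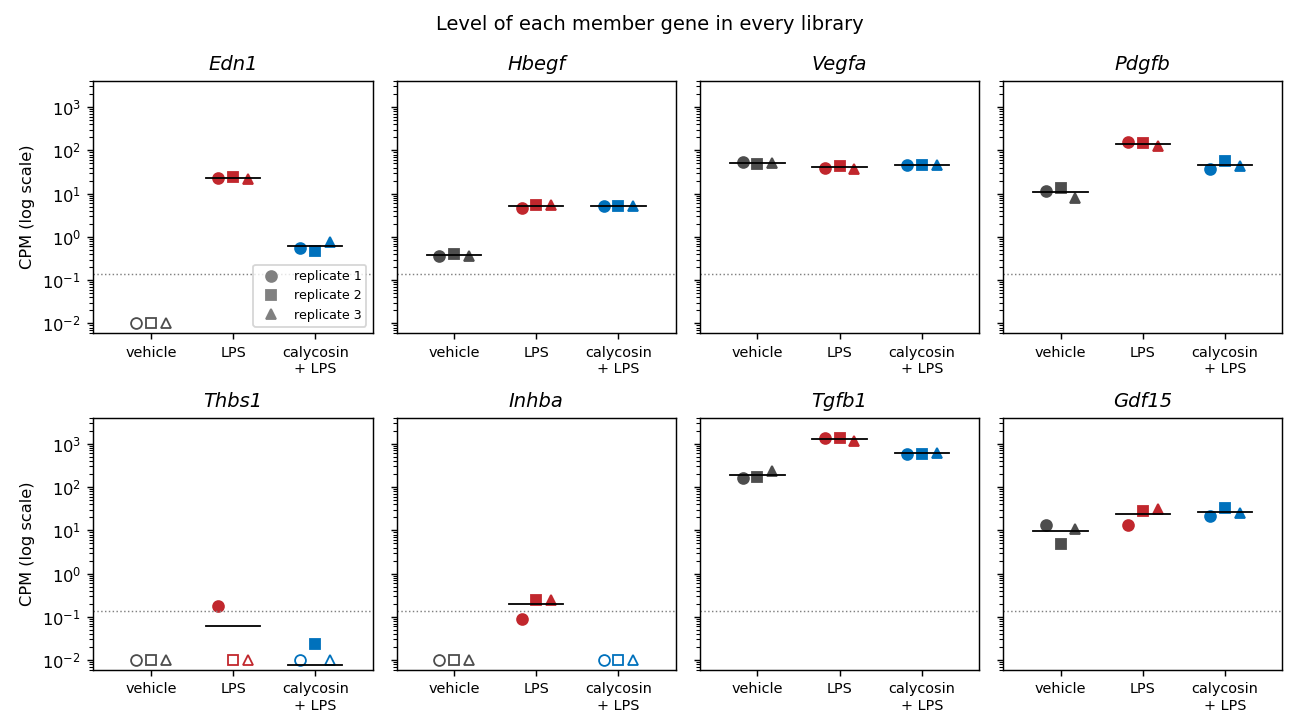
Level of each of the 8 members in each of 9 libraries, in CPM on a log axis, by group, with the marker shape giving the replicate number and the bar the group mean. Hollow symbols at the foot are libraries with 0 counts and the dotted line is the highest floor of 3 counts (0.137 CPM). Edn1 is at 0 in vehicle, 21.2 to 24.5 CPM with LPS and 0.469 to 0.777 CPM with calycosin plus LPS, while Hbegf is near 5 CPM in both LPS groups.

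Hbegf (ENSMUSG00000024486, minus strand of chromosome 18) was a low transcript that was higher in both LPS groups. Vehicle libraries held 18, 20 and 12 counts, or 0.361, 0.411 and 0.365 CPM. LPS libraries held 4.74, 5.54 and 5.53 CPM. Calycosin plus LPS libraries held 5.07, 5.05 and 5.05 CPM. All 6 libraries with LPS lay above all vehicle libraries, and the calycosin libraries lay within the range of the LPS libraries. LPS cells (5.27 ± 0.459 CPM, n = 3) were 13.7-fold higher than vehicle cells (0.379 ± 0.0277 CPM, n = 3), a log2 fold change of 3.78 (SE 0.19). Between the LPS groups the log2 fold change was -0.06 (SE 0.16), with a 95% interval of -0.42 to 0.30. Against vehicle, calycosin plus LPS cells were 13.2-fold higher. Without vehicle replicate 3 and calycosin plus LPS replicate 2, the log2 fold changes were 3.70 with LPS and -0.03 between the LPS groups.

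Around Hbegf, genes that release it and a gene that restrains its receptor changed, and the receptors were at 0. The receptors Egfr and Erbb4 and the ligands Ereg and Nrg1 had 0 counts in all libraries. Adam17, the sheddase of Hbegf, rose 2.63-fold with LPS, from 148 ± 16.3 to 389 ± 25.5 CPM (adjusted p = 3.39e-05, edgeR). It was at 311 ± 52.1 CPM with calycosin plus LPS, which did not pass against LPS (log2 fold change -0.32, 95% interval -0.65 to 0.01, adjusted p = 0.129, edgeR) and stayed 2.11-fold above vehicle (adjusted p = 2.84e-04). Rhbdf2, the iRhom that brings ADAM17 to the cell surface, rose 7.34-fold with LPS, from 108 to 790 CPM (adjusted p = 4.63e-08, edgeR). With calycosin it fell 1.50-fold, to 526 CPM (adjusted p = 0.00371), and was 4.89-fold above vehicle (adjusted p = 2.74e-07). Its paralog Rhbdf1 moved the other way between the LPS groups and rose 2.67-fold, from 3.22 to 8.59 CPM (adjusted p = 0.00504, edgeR). In vehicle cells Rhbdf1 was at 5.51 CPM. Errfi1, an intracellular inhibitor of the EGF receptor, rose 9.71-fold with LPS, from 2.89 ± 0.572 to 28.2 ± 2.93 CPM (adjusted p = 2.96e-07, edgeR). With calycosin plus LPS it was at 9.98 ± 0.825 CPM, 2.83-fold below LPS (adjusted p = 2.75e-04) and 3.43-fold above vehicle (adjusted p = 2.37e-05). Egf itself fell 2.35-fold with calycosin plus LPS against vehicle, from 1.79 to 0.755 CPM (adjusted p = 0.0251, edgeR), a call that was lost without vehicle replicate 1 or 2 or calycosin plus LPS replicate 1 or 3 (adjusted p = 0.0531 to 0.0935) and under the replicate block (adjusted p = 0.0511). Egf was already lower with LPS alone, at 0.839 CPM, and edgeR called that fall too, though 7 of 18 alternatives did not. Between the LPS groups the log2 fold change of Egf ran from -0.38 to 0.60 over the alternatives, and none called it. Of the 19 EGF family genes listed, 9 were tested. With LPS, 5 rose, 3 fell and 1 did not pass, and with calycosin before LPS 2 rose, 3 fell and 4 did not pass. Over all genes tested, 56.3% and 29.1% were called in these comparisons.

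Vegfa differed little between groups in CPM. The gene (ENSMUSG00000023951) lies on the minus strand of chr17:46016993-46032369 (GRCm38) and has 13 annotated transcripts, which the gene counts merge. Vehicle libraries held 54.1, 49.0 and 50.6 CPM. LPS libraries held 39.6, 43.7 and 38.0 CPM. Calycosin plus LPS libraries held 45.0, 45.7 and 46.3 CPM. The groups formed 3 bands that did not overlap, with vehicle highest, calycosin plus LPS between and LPS lowest, yet they lay close together. LPS cells (40.4 ± 2.94 CPM, n = 3) were 1.27-fold lower than vehicle cells (51.2 ± 2.60 CPM, n = 3), a log2 fold change of -0.34 (SE 0.10, 95% interval -0.57 to -0.12). This call of edgeR was lost without LPS replicate 1 (log2 fold change -0.32) or LPS replicate 3 (-0.29). Without both libraries that stand apart the value was -0.41. On the deposited TPM the means differed more, with 53.1 in vehicle, 23.1 in LPS and 33.9 in calycosin plus LPS cells. On that scale the median log2 fold change of all genes with LPS was -0.61 (pseudocount of 1). The 95% interval of the log2 fold change spanned 0 between the LPS groups (-0.05 to 0.40, value 0.18, SE 0.10) and between calycosin plus LPS and vehicle (-0.39 to 0.06, value -0.17, SE 0.10).

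The upstream sequence of Vegfa, a transcript with small differences in CPM, is set beside that of Tgfb1, one with large differences. Both windows hold a match to the NF-kappaB consensus. Capitals mark the matches. The windows are the 250 bases before the start, on the minus strand of chr17:46032378-46032627 for Vegfa and on the plus strand of chr7:25686752-25687001 for Tgfb1 (GRCm38.p6, RefSeq).
Vegfa: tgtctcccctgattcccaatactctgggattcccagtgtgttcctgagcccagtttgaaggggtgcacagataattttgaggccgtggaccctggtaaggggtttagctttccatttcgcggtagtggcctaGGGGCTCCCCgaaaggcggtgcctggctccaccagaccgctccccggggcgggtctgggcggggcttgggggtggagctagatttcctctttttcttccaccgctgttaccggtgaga
Tgfb1: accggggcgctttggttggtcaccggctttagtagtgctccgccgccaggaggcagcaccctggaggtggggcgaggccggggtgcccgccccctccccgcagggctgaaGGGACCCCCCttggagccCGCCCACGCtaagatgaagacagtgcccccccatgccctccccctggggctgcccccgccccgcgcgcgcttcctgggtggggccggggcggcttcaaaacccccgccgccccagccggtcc
In Vegfa the match was GGGGCTCCCC at bases -118 to -109 from the start, where it reads as the consensus on both strands. In Tgfb1 it was GGGACCCCCC at bases -140 to -131, also on both strands, followed at -122 to -114 by CGCCCACGC, which is the EGR sequence GCGTGGGCG on the minus strand. A further Vegfa window in the table, with another start, held the hypoxia response core at -211 to -207. The Inhba window held the TATA box at -91 to -86, and 1 of the 2 Gdf15 windows held the hypoxia response core at -83 to -78, where both strands match and overlap. The NF-kappaB consensus is held by 8.46% of all windows, and its part in the levels was not tested.

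Among the VEGF receptors and other ligands, Flt1 and Vegfc rose with LPS, and Nrp1 and Vegfc fell with calycosin. Flt1, the receptor shared by VEGF-A, VEGF-B and PlGF, was at 38.3 ± 6.25 CPM in vehicle, 161 ± 6.85 in LPS and 119 ± 7.35 in calycosin plus LPS cells, and rose 4.22-fold with LPS (adjusted p = 9.46e-07, edgeR). Its fall of 1.36-fold with calycosin (adjusted p = 0.0273) was lost without LPS replicate 1 or 2 or any 1 of the 3 calycosin plus LPS libraries (adjusted p = 0.0564 to 0.0922), and it stood 3.11-fold above vehicle (adjusted p = 7.20e-06). Kdr, the main endothelial VEGF receptor, had 10, 8 and 12 counts in the vehicle, LPS and calycosin plus LPS groups. Nrp1, a coreceptor, was at 66.0 ± 1.91 CPM in vehicle and 54.1 ± 8.42 in LPS cells, which did not pass (adjusted p = 0.0746, edgeR). It fell 2.17-fold with calycosin, to 24.9 ± 0.349 CPM (adjusted p = 3.64e-04). Nrp2, the other coreceptor listed, had more counts and another pattern. It was at 856 ± 92.3 CPM in vehicle, 2185 ± 206 in LPS and 1648 ± 66.45 in calycosin plus LPS cells. Vegfc, the lymphatic vessel ligand, rose 5.75-fold with LPS, from 7.84 ± 2.26 to 45.2 ± 6.46 CPM (adjusted p = 9.35e-06, edgeR), and fell 3.12-fold with calycosin, to 14.5 ± 1.51 CPM (adjusted p = 6.64e-04). Vegfb was at 62.6 CPM in vehicle, 15.9 in LPS and 15.2 in calycosin plus LPS cells, falls of 3.95-fold and 4.13-fold from vehicle (adjusted p = 1.34e-06 and 1.67e-06, edgeR). Between the LPS groups its log2 fold change was -0.06 (95% interval -0.35 to 0.22, adjusted p = 0.740). Egln3, an oxygen-sensing hydroxylase that marks HIF for degradation, fell 6.88-fold with LPS, from 11.9 to 1.72 CPM (adjusted p = 7.87e-07, edgeR), and was 8.13-fold lower with calycosin plus LPS than in vehicle (adjusted p = 6.62e-07). Of the 16 VEGF genes listed, 12 were tested. With LPS, 5 rose, 3 fell and 4 did not pass, and with calycosin before LPS 3 fell and 9 did not pass. The shares called over all genes tested were 56.3% and 29.1%.

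Pdgfb was higher with LPS than in vehicle cells, and less so with calycosin plus LPS. The gene (ENSMUSG00000000489) lies on the minus strand of chr15:79995874-80014977 (GRCm38). Vehicle libraries held 11.5, 13.6 and 7.85 CPM. LPS libraries held 154, 145 and 129 CPM. Calycosin plus LPS libraries held 37.8, 57.7 and 42.8 CPM. The groups did not overlap, and libraries with calycosin lay between the other two. LPS cells (142 ± 12.5 CPM, n = 3) were 12.9-fold higher than vehicle cells (11.0 ± 2.91 CPM, n = 3), a log2 fold change of 3.69 (SE 0.23). Calycosin plus LPS cells (46.1 ± 10.3 CPM, n = 3) were 3.09-fold lower than LPS cells (log2 fold change -1.63, SE 0.22, 95% interval -2.11 to -1.15), and 4.19-fold higher than vehicle cells. The lowest vehicle value was that of replicate 3, with the highest mitochondrial share. The highest calycosin value was that of replicate 2, with the lowest share in its group. Without both libraries the log2 fold change was 3.45 with LPS and -1.80 between the LPS groups. Over the 18 alternatives, which include this share as a covariate, the value between the LPS groups ran from -1.82 to -1.28. Whether the share is a cause of the differences was not tested. On the deposited TPM, the fall with calycosin did not pass with limma (log2 fold change -1.28 with a pseudocount of 1 and -1.31 with 0.1).

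Among the PDGF genes, Pdgfrb, the receptor of PDGF-B, was seen almost only with LPS alone. It had 4, 119 and 16 counts in the vehicle, LPS and calycosin plus LPS groups, or 0.0271 ± 0.0235, 1.71 ± 0.578 and 0.154 ± 0.0362 CPM. With LPS it rose (adjusted p = 2.73e-05, edgeR), with no fold given because the vehicle mean lies under the floor, and with calycosin it fell 10.9-fold (adjusted p = 9.67e-04). Pdgfra had 2 counts, both with LPS, and Pdgfc and Pdgfd had 0. Pdgfa, the other main ligand, was lowest where Pdgfb was highest: it was at 6.59 CPM in vehicle, 3.89 in LPS and 8.72 in calycosin plus LPS cells. Its rise of 2.24-fold with calycosin passed (adjusted p = 0.0120, edgeR). Its fall of 1.69-fold with LPS (adjusted p = 0.0392) was lost without vehicle replicate 3, LPS replicate 1 or 2, or any 1 of the 3 calycosin plus LPS libraries (adjusted p = 0.0531 to 0.117).

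Tgfb1 had the highest level per length of the members in every group, as the TPM values further on show. The gene (ENSMUSG00000002603) lies on the plus strand of chr7:25687002-25705077 (GRCm38). Vehicle libraries held 162, 166 and 238 CPM. LPS libraries held 1367, 1325 and 1182 CPM. Calycosin plus LPS libraries held 587, 580 and 626 CPM. The groups did not overlap, and the highest vehicle value was that of replicate 3. LPS cells (1291 ± 97.0 CPM, n = 3) were 6.83-fold higher than vehicle cells (189 ± 42.7 CPM, n = 3), a log2 fold change of 2.77 (SE 0.17). Calycosin plus LPS cells (598 ± 25.01 CPM, n = 3) were 2.16-fold lower than LPS cells (log2 fold change -1.11, SE 0.16, 95% interval -1.48 to -0.75), and 3.16-fold higher than vehicle cells. Without vehicle replicate 3 and calycosin plus LPS replicate 2 the log2 fold changes were 2.92, -1.07 and 1.85 in the same order.

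Around Tgfb1, both receptors and Smad3 fell with LPS, while the convertase Furin and the coreceptor Eng rose. Tgfbr1, the type I receptor, fell 2.78-fold with LPS, from 32.5 ± 1.04 to 11.7 ± 1.77 CPM (adjusted p = 1.66e-05, edgeR), and rose 1.70-fold with calycosin, to 19.9 ± 2.03 CPM (adjusted p = 0.00348). Tgfbr2, the type II receptor that binds the ligand first, fell 3.04-fold with LPS, from 251 ± 5.63 to 82.7 ± 8.42 CPM (adjusted p = 1.55e-06, edgeR). It was at 86.7 ± 4.67 CPM with calycosin plus LPS, a log2 fold change of 0.07 against LPS (95% interval -0.17 to 0.31, adjusted p = 0.666). Eng, the coreceptor endoglin, was at 23.1 ± 1.67 CPM in vehicle and 128 ± 9.29 in LPS cells, a rise of 5.54-fold (adjusted p = 6.04e-07, edgeR), and fell 3.04-fold with calycosin, to 42.1 ± 7.44 CPM (adjusted p = 1.15e-04). Smad3, which carries the signal to the nucleus, fell with LPS from 6.55 ± 0.740 to 0.118 ± 0.140 CPM (adjusted p = 1.26e-05, edgeR), with 8 counts left in the 3 LPS libraries, and stood at 0.767 ± 0.0513 CPM with calycosin plus LPS, 8.51-fold below vehicle (adjusted p = 2.13e-04). The inhibitory Smad6 fell with LPS from 2.55 to 0.192 CPM (adjusted p = 0.00104, edgeR). It had 14 counts left in the LPS libraries, the lowest at 0 CPM, so no fold is given. With calycosin plus LPS it was 4.69-fold below vehicle (adjusted p = 0.00896).

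Furin, which cuts the precursors of TGF-beta 1 and endothelin-1, rose 4.71-fold with LPS, from 100.9 ± 14.9 to 475 ± 33.7 CPM (adjusted p = 1.03e-05, edgeR). It was at 316 ± 80.8 CPM with calycosin plus LPS, and its fall of 1.51-fold against LPS (adjusted p = 0.0442) was lost without vehicle replicate 1 or 2, any 1 of the 3 LPS libraries, or calycosin plus LPS replicate 1 or 3 (adjusted p = 0.0620 to 0.130). Ltbp4, a latent TGF-beta binding protein, was at 1.815 CPM in vehicle, 0.631 in LPS and 1.95 in calycosin plus LPS cells. Its rise of 3.09-fold between the LPS groups passed (adjusted p = 0.00364, edgeR), and it ended near the vehicle level. Id3 fell 2.14-fold with calycosin, from 5.56 to 2.58 CPM (adjusted p = 0.0333, edgeR), a call lost without any 1 LPS library or without calycosin plus LPS replicate 1 or 3 (adjusted p = 0.0603 to 0.107). Ltbp1, Itgb6, Itgb8 and Tgfbi had 0 counts in all libraries. Of the 29 TGF-beta genes listed, 20 were tested: 7 rose and 6 fell with LPS, and 4 rose and 4 fell with calycosin before LPS. Over all genes tested, 56.3% were called with LPS and 29.1% between the LPS groups.

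**Figure D2:**
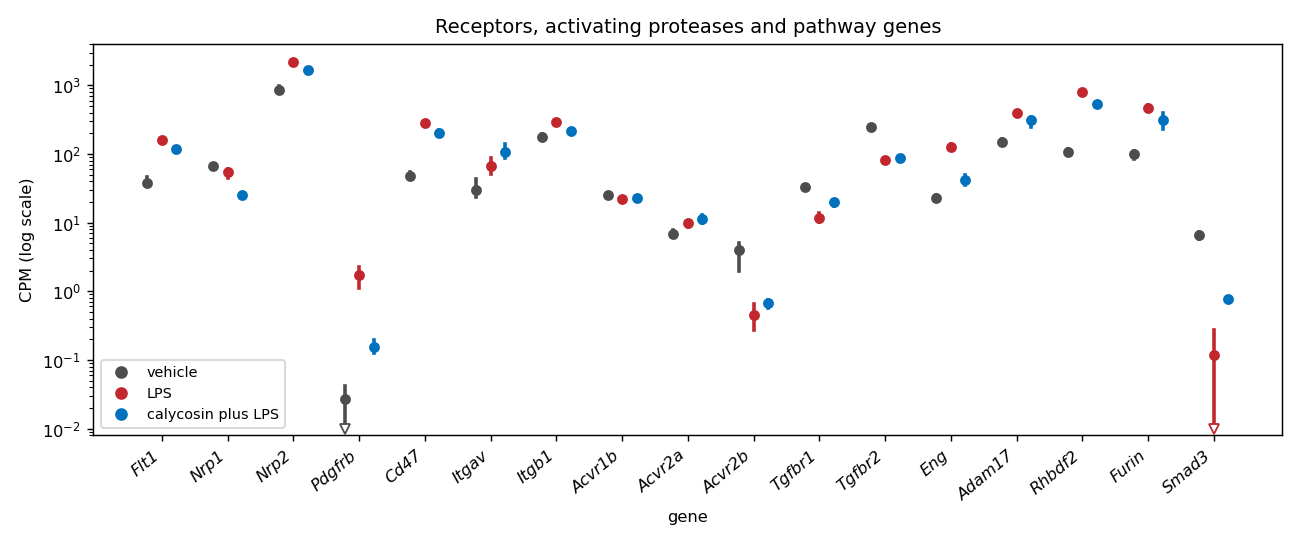
Level of receptors, activating proteases and pathway genes around the members, in CPM on a log axis, with the group mean of 3 libraries as a point and the range of the libraries as a line. A hollow triangle marks a range that reaches 0. Eng and Rhbdf2 are highest with LPS alone, and Tgfbr2 is highest in vehicle cells (251 CPM).

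Inhba, the subunit of activin A, was at the limit of detection. The gene (ENSMUSG00000041324) lies on the plus strand of chr13:16011851-16031621 (GRCm38). All 3 vehicle libraries and all 3 calycosin plus LPS libraries had 0 counts, and the LPS libraries had 2, 6 and 6 counts. LPS cells were thus at 0.196 ± 0.0904 CPM (n = 3), close to the floor, and the filter on low counts left it out. In the fit without that filter edgeR called it higher with LPS against vehicle and lower with calycosin plus LPS against LPS, on these same 14 counts. The other subunits Inha and Inhbb had 0 counts in all libraries. The type I receptor of activin, Acvr1b, was at 24.9 ± 1.64 CPM in vehicle, 22.3 ± 1.75 in LPS and 22.8 ± 1.45 in calycosin plus LPS cells and passed in none of the 3 comparisons (adjusted p = 0.268, 0.861 and 0.388, edgeR). Acvr2b, a type II receptor, fell 8.69-fold with LPS, from 3.94 ± 1.70 to 0.448 ± 0.194 CPM (adjusted p = 2.32e-04, edgeR), and was 5.89-fold below vehicle with calycosin plus LPS (adjusted p = 7.51e-04). Acvr1, a type I receptor mainly of BMPs, rose 1.64-fold with LPS, from 18.4 to 30.1 CPM (adjusted p = 6.96e-04, edgeR), and was 1.67-fold above vehicle with calycosin plus LPS (adjusted p = 7.84e-04). Acvr2a, the other type II receptor, was at 6.88 ± 0.771, 9.75 ± 1.08 and 11.4 ± 1.49 CPM, and its rise of 1.42-fold with LPS (adjusted p = 0.0219, edgeR) did not survive leaving out LPS replicate 2 or 3 or vehicle replicate 1 or 2 (adjusted p = 0.0655 to 0.105). Its rise of 1.66-fold with calycosin plus LPS over vehicle had an adjusted p of 0.00409 (edgeR). On the deposited TPM with a pseudocount of 1, the log2 fold changes with LPS were -0.06 for Acvr1 and -0.26 for Acvr2a, so the directions of these small rises depend on the scaling. The activin antagonist Fst had 8, 5 and 0 counts in the vehicle, LPS and calycosin plus LPS groups. Of the 12 activin and inhibin genes listed, 4 were tested. With LPS, 2 rose, 1 fell and 1 did not pass, and the 4 did not pass with calycosin before LPS. Over all genes tested, 56.3% and 29.1% were called in these comparisons.

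Gdf15, a distant TGF-beta relative induced by cell stress, had a wide spread among the vehicle and the LPS libraries. The gene (ENSMUSG00000038508) lies on the minus strand of chr8:70629393-70632456 (GRCm38). Vehicle libraries held 13.5, 4.91 and 10.9 CPM. LPS libraries held 13.2, 27.9 and 31.5 CPM. Calycosin plus LPS libraries held 21.7, 32.2 and 25.5 CPM. LPS replicate 1 lay within the range of the vehicle libraries, while all calycosin plus LPS libraries lay above them and overlapped the LPS group. LPS cells (24.2 ± 9.71 CPM, n = 3) were 2.48-fold higher than vehicle cells (9.77 ± 4.41 CPM, n = 3), a log2 fold change of 1.31 (SE 0.40, 95% interval 0.42 to 2.20). This call was lost without vehicle replicate 2 (log2 fold change 0.94), LPS replicate 2 (1.20) or LPS replicate 3 (1.08), and on TPM with limma (0.47 with a pseudocount of 1). Calycosin plus LPS cells (26.4 ± 5.33 CPM, n = 3) and LPS cells differed by 0.13 on the log2 scale (SE 0.39, 95% interval -0.74 to 1.00). They were 2.71-fold higher than vehicle cells, a log2 fold change of 1.44 (SE 0.40), a call lost without vehicle replicate 3 and calycosin plus LPS replicate 2 together (1.32) and on TPM (1.06).

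The list around Gdf15 held regulators and markers of the stress responses known to induce it. Of 12 genes listed, 9 were tested. With LPS, 6 rose and 3 did not pass, and with calycosin before LPS 1 rose, 3 fell and 5 did not pass. With calycosin plus LPS against vehicle, 8 rose and 1 did not pass. Over all genes tested, 56.3%, 29.1% and 49% were called in the same order. The list was drawn up with earlier results known, so nothing is read from these counts. Atf3, a stress transcription factor, rose 15.6-fold with LPS, from 22.5 ± 4.72 to 352 ± 17.4 CPM (adjusted p = 7.71e-08, edgeR), and was at 357 ± 30.7 CPM with calycosin plus LPS, 15.8-fold above vehicle (adjusted p = 1.11e-07). Cdkn1a, the cell cycle inhibitor p21, rose 3.37-fold with LPS, from 229 to 772 CPM (adjusted p = 4.64e-07, edgeR). With calycosin it fell 1.58-fold, to 489 CPM (adjusted p = 0.00121), and was 2.13-fold above vehicle (adjusted p = 1.72e-05). Asns, the asparagine synthetase of the amino acid response, rose 2.48-fold with LPS, from 217 to 537 CPM (adjusted p = 5.94e-05, edgeR). Its fall of 1.51-fold with calycosin (adjusted p = 0.0153) was lost without LPS replicate 3 or calycosin plus LPS replicate 2 (adjusted p = 0.0508 and 0.0604). Sesn2, a stress-induced regulator of growth signalling, fell 1.71-fold with calycosin, from 194 to 113 CPM (adjusted p = 0.00108, edgeR). Ddit3, the factor CHOP, was at 68.5 ± 3.87 CPM in vehicle, 119 ± 14.6 in LPS and 163 ± 6.30 in calycosin plus LPS cells, 2.37-fold above vehicle in the last (adjusted p = 2.02e-05, edgeR). The GDF15 receptor Gfral, known from the hindbrain, had 4, 0 and 3 counts in the vehicle, LPS and calycosin plus LPS groups.

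Thbs1, a matrix glycoprotein that can activate latent TGF-beta, was at the limit of detection. The gene (ENSMUSG00000040152) lies on the plus strand of chr2:118111876-118127133 (GRCm38). It had 4 counts in LPS replicate 1, 1 count in calycosin plus LPS replicate 2 and 0 in the other 7 libraries, so no group could be told from another at this depth and no fold is given. Its receptors differed in level: Cd36 had 13, 8 and 16 counts in the vehicle, LPS and calycosin plus LPS groups, while Cd47 was at 47.8 ± 5.70, 283 ± 11.8 and 203 ± 17.9 CPM. Cd47, which is also the signal that restrains phagocytosis, rose 5.91-fold with LPS (adjusted p = 1.66e-07, edgeR) and was 4.24-fold above vehicle with calycosin plus LPS (adjusted p = 9.19e-07). Its fall of 1.39-fold between the LPS groups (adjusted p = 0.0146) was lost without calycosin plus LPS replicate 1 or 2 (adjusted p = 0.0637 and 0.0569). Itgb1, an integrin chain, fell 1.36-fold with calycosin, from 290 to 214 CPM (adjusted p = 0.0146, edgeR), a call lost without calycosin plus LPS replicate 2 or 3 (adjusted p = 0.0532 and 0.0631). Itgav, the integrin chain of latent TGF-beta activation, was at 30.1 CPM in vehicle, 66.7 in LPS and 106 in calycosin plus LPS cells, 3.52-fold above vehicle in the last (adjusted p = 8.71e-04, edgeR). The paralog Comp fell with LPS from 1.60 to 0.143 CPM (adjusted p = 0.00245, edgeR) and with calycosin plus LPS to 0.232 CPM (adjusted p = 0.00592). Thbs3 fell 2.27-fold with LPS, from 3.44 to 1.52 CPM (adjusted p = 0.00113, edgeR). Its rise of 1.77-fold with calycosin, to 2.68 CPM (adjusted p = 0.0186), was lost without LPS replicate 1 or 2 or calycosin plus LPS replicate 1 (adjusted p = 0.0603 to 0.0673). Thbs2 had 0 counts in all libraries. Of the 9 thrombospondin genes listed, 6 were tested. With LPS, 4 rose and 2 fell, and with calycosin before LPS 1 rose, 3 fell and 2 did not pass. The shares called over all genes tested were 56.3% and 29.1%.

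Across the members, 3 were called between the LPS groups and 3 were not. With LPS against vehicle, edgeR called 5 of the 6 members that passed the filter higher (Hbegf, Pdgfb, Tgfb1, Gdf15 and Edn1, the last against 0 counts) and Vegfa lower, where 56.3% of all genes tested were called, 27.3% higher and 28.9% lower. With calycosin plus LPS against LPS it called 3 lower (Edn1, Pdgfb and Tgfb1) and did not call the other 3, where 29.1% of all genes were called, 16.1% higher and 12.9% lower. With calycosin plus LPS against vehicle it called 5 higher and did not call Vegfa, where 49% of all genes were called, 25.4% higher and 23.6% lower. Since the members were chosen with these comparisons known, nothing is read from these shares. The median log2 fold changes of the tested members were 3.23, -0.59 and 1.86, beside -0.07, 0.02 and 0.00 over all genes, and the first and the third are the same with Edn1 at its bound against the floor. The 3 comparisons share groups: each group enters into a pair of them.

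**Figure D3:**
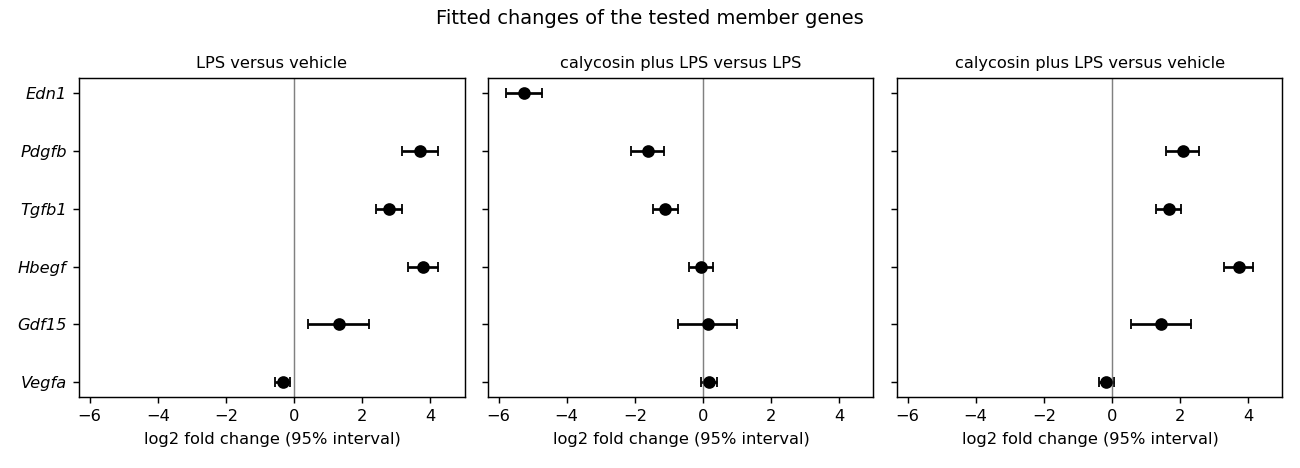
Log2 fold change with its 95% interval for the 6 tested members in the 3 comparisons, from the fit to counts. Edn1 is drawn only between the LPS groups (-5.26), because its vehicle libraries hold 0 counts; Pdgfb and Tgfb1 lie to the right of 0 with LPS and to the left of 0 with calycosin before LPS, and Hbegf, Gdf15 and Vegfa span 0 there.

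The companion genes, listed by pathway with earlier results of these data known, give the setting. Of 109 genes listed, 63 were tested, where 56.3%, 29.1% and 49% of all genes tested were called in the comparisons that follow. With LPS, 30 rose, 16 fell and 17 did not pass (median log2 fold change 0.52). With calycosin before LPS, 9 rose, 17 fell and 37 did not pass (median -0.06). With calycosin plus LPS against vehicle, 30 rose, 13 fell and 20 did not pass (median 0.41). Of these counts, the 17 that fell were 10 or 11 without LPS replicate 1 or any 1 calycosin plus LPS library, and the 9 that rose were 15 without vehicle replicate 3 and 5 without LPS replicate 2. The scaling also matters for these splits. On the deposited TPM with limma and a pseudocount of 1, the median log2 fold change of all genes was -0.61 with LPS, 0.25 between the LPS groups and -0.33 against vehicle, and the calls over all genes were 1476 higher and 6962 lower with LPS, in place of 3954 and 4180. In all 18 alternatives run per value, TPM included, the fold changes with LPS of Edn1, Hbegf, Pdgfb, Tgfb1 and Gdf15 stayed above 0, that of Vegfa stayed below 0 (-1.15 to -0.29), and those of Edn1, Pdgfb and Tgfb1 between the LPS groups stayed below 0. The lowest Vegfa value was that on TPM and is to be read against the shift of all genes there. Among the companion calls named above, limma on TPM lost those of Acvr1 and Acvr2a with LPS, those of Errfi1 (with a pseudocount of 0.1 only), Rhbdf2, Vegfc, Nrp1, Flt1, Thbs3, Cd47, Itgb1, Furin, Id3, Sesn2, Cdkn1a and Asns with calycosin before LPS, and those of Acvr1, Acvr2a and Cdkn1a with calycosin plus LPS against vehicle.

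Levels of different genes are compared only per length, in the TPM that the authors deposited. In vehicle cells the order of the mean levels was Tgfb1 (195 TPM), Vegfa (53.1), Gdf15 (15.1), Pdgfb (9.13) and Hbegf (0.355), with Edn1, Inhba and Thbs1 listed at 0. Gdf15 and Pdgfb overlapped there. With LPS, Pdgfb (64.2 TPM) stood second after Tgfb1 (790), followed by Vegfa (23.1), Gdf15 (20.7), Edn1 (14.1) and Hbegf (2.92), and then by Inhba (0.0375) and Thbs1 (0.0134). The libraries of Gdf15 (11.0 to 27.7 TPM) overlapped those of both Vegfa and Edn1, so Gdf15 is not ordered against either. With calycosin plus LPS, Vegfa (33.9 TPM), Gdf15 (31.1) and Pdgfb (27.3) overlapped behind Tgfb1 (463), and Hbegf (3.57) stood above Edn1 (0.451). Hbegf and Edn1 thus changed places between the LPS groups, in all 3 libraries of each.

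**Figure D4:**
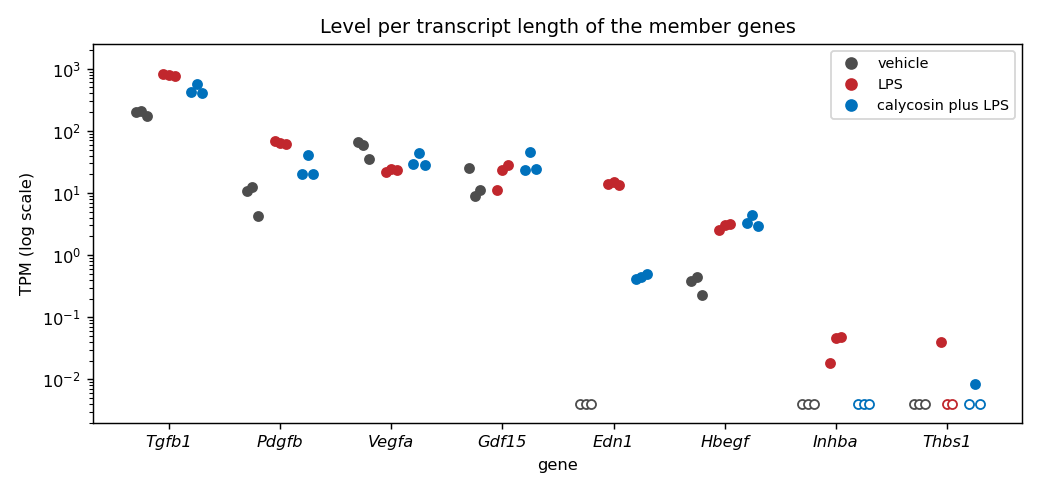
Level per transcript length of the 8 members in TPM on a log axis, 1 point per library, coloured by group, with hollow symbols at the foot for libraries listed at 0. Tgfb1 is highest in all 9 libraries, and Edn1 lies above Hbegf in LPS libraries (13.5 to 14.8 against 2.58 to 3.17 TPM) and below it in calycosin plus LPS libraries.

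The genes whose levels over the 9 libraries were most like each member were found by the root mean square difference of centred log2 CPM, a distance that is 0 for the same pattern. For Edn1 they were Il1b (0.68), Ccl12 (0.74) and Upp1 (0.77). Il1b, the precursor of interleukin-1 beta, was at 0 in vehicle, 35.2 ± 3.43 CPM in LPS and 0.334 ± 0.138 CPM in calycosin plus LPS cells, and the chemokine Ccl12 at 0, 7.27 ± 0.834 and 0.469 ± 0.137 CPM. For Hbegf they were Themis2 (0.16), Cxcl16 (0.16) and Dtx3l (0.19), for Pdgfb Perm1 (0.20), Ercc1 (0.21) and Ier3 (0.22), and for Tgfb1 Slc7a8 (0.08), Etnk1 (0.14) and Lgals3bp (0.14). Ercc1, a DNA repair nuclease subunit, was at 9.06 ± 1.95, 96.0 ± 5.13 and 40.8 ± 5.54 CPM in the 3 groups, and the amino acid transporter Slc7a8 at 30.8 ± 6.61, 204 ± 18.1 and 106 ± 5.57 CPM. For Vegfa they were Slc31a1 (0.06), Mrps27 (0.08) and Brap (0.08), and for Gdf15, with its wide spread, Rtn4 (0.36), Ccdc71 (0.38) and Mb21d1 (0.40). All these genes share the same 9 libraries and their scaling, so the likeness is a description.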

How the data were processed

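Polyadenylated RNA of 9 cultures was captured on poly-T beads and sequenced, per the labels' protocols. Trimmomatic 0.36, HISAT2 2.0, StringTie 1.3.3b and build mm10 are named, per the submitters' processing notes. Raw gene counts, whole numbers, were deposited by the authors, and TPM, scaled for transcript length and depth, were deposited by the authors beside them. For the read counter, annotation release and strandedness, nothing is given in the sources used here. Members were matched to GENCODE M21 (GRCm38) by gene name.

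Counts were filtered with filterByExpr, scaled by TMM and fitted with edgeR 4.0.16 (quasi-likelihood F test, two-sided, R 4.3.3) over all 9 libraries with a term per group. P-values were adjusted by Benjamini-Hochberg over all 14458 genes tested, with a threshold of 0.05. With 3 libraries against 3 an exact permutation test of 1 gene cannot go below 0.1. SEs and 95% intervals come from the test statistic. Alternatives were DESeq2 1.42.0, other scaling, no filter, limma 3.58.1 on log2(TPM + 1) and log2(TPM + 0.1), a replicate block, the mitochondrial share as a covariate, and leaving out libraries. No pair of libraries was a duplicate.

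The members, the companion lists and the rules were chosen with earlier results of these data known. Companions were named as the up to 3 called genes of the largest change per list and comparison with a mean of 1 CPM or more in the higher group, plus the receptors that bind a member directly, Adam17, Furin, Ece1 and Fst. A further gene of the rule is not reported here. Most alike genes, up to 3 per member, had a mean of 1 CPM or more and were compared with a prior count of 2. A table of protein sequences was not used here.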

Additional observations from a re-analysis of the deposited data

How the results depend on the processing

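Levels near 3 counts per library, 3 libraries per group and vehicle replicate 3 and calycosin plus LPS replicate 2, which stand apart, limit these results. No member's called fold change turned its sign in any alternative. Over fold changes of members and named companions, 2048 kept their side of the threshold, 131 lost it, 24 gained it and 8 turned. The 8 came from TPM, with pseudocounts of 1 and 0.1, for LPS against vehicle: Itgb1 (-0.07 and -0.07), Acvr1 (-0.06 and -0.06), Acvr2a (-0.26 and -0.34) and Ddit3 (-0.02 and -0.02). The cause was not tested.

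With limma on log2(TPM + 1) and log2(TPM + 0.1), genes called with LPS were 1476 and 1481 higher (3954 on counts) and 6962 and 6960 lower (4180), and companions 16 and 16 higher (30) and 25 and 25 lower (16). Between the LPS groups, genes called higher were 1423 with a pseudocount of 1 (2333 on counts), genes lower 335 and 333 (1871), companions higher 5 and 5 (9) and companions lower 3 and 2 (17). Against vehicle, calycosin plus LPS gave 1500 and 1496 genes higher (3672) and 11 and 12 companions higher (30). With the mitochondrial share as a covariate, 3307 genes and 15 companions were called lower and higher, respectively, between the LPS groups, and 14 companions were higher without both libraries that stand apart. Leaving out 1 library at a time gave 0 to 1 members lower with LPS, and between the LPS groups 1224 to 2576 genes lower, 5 to 15 companions higher and 10 to 20 companions lower. Per kilobase of exon in place of TPM, the LPS order had Gdf15 at place 3, Edn1 at 4 and Vegfa at 5, and the calycosin plus LPS order Gdf15 at 2, Pdgfb at 3 and Vegfa at 4.

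Deviations of same-numbered libraries had correlations across genes of -0.17 to 0.36, the highest between vehicle and calycosin plus LPS replicates 2. Differently numbered libraries ran from -0.47 to 0.36. With 3 libraries per group, some of which stand apart, these values cannot decide whether the numbers pair the libraries. The replicate block changed 4 calls: Egf was lost with LPS (log2 fold change -1.11) and with calycosin plus LPS (-1.19) against vehicle, and Itgav between the LPS groups (0.67) and Rhbdf1 with calycosin plus LPS against vehicle (0.66) were gained.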
